A study of Mus musculus with 8 samples.

Results

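Usp17la, Zfp352, Ubtfl1, Spz1, Sp110, Arg2 and Duxf3 are 7 genes that belong to, or have been linked with, the transcription program of the 2-cell mouse embryo and that lie outside the large Tcstv, Zscan4 and Prame-like gene clusters. They were chosen by symbol: every probe set annotated to one of these symbols was taken, which gave 11 probe sets with the symbol alone and 1 that carries Duxf3 together with other symbols. The 7 genes stand among 18193 genes with a probe set of their own on the array, of which 14714 were tested. In the mouse embryo the 2-cell stage is when the zygotic genome is first transcribed in earnest, and a small share of embryonic stem cells passes through a transient state that transcribes many of the same genes. Double homeobox (Dux) transcription factors are known to switch this program on, and chromatin repressors hold it down.

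The study lowered Rif1, which encodes a telomere-associated protein with roles in DNA repair and replication timing, with a short hairpin RNA (shRNA), and read total RNA on 8 one-colour Affymetrix arrays. J1 embryonic stem cells (strain 129S4/SvJae) were transfected with control shRNA or Rif1 shRNA and collected after 48 h. F1 embryonic stem cells (C57BL/6xC3H) carried control shRNA or a stable Rif1 shRNA and were at passage 16. Each of the 4 groups had 2 arrays, and all cells were grown on feeder cells. The labels do not state whether the 2 arrays of a group came from separate cultures or whether the F1 line is 1 clone, so the p-values reflect only how far the arrays at hand spread, which may be technical spread. The F1 control arrays carry the knockdown line's name in their cell line label and control shRNA under transfection. Line, strain, way of delivery and time in culture all change together between J1 and F1 and cannot be told apart.

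Rif1 itself checked the labels. At its brightest probe set the signal was 2614 and 3222 in J1 control, 1260 and 1297 in J1 Rif1 shRNA, 4231 and 4247 in F1 control, and 1339 and 1407 in F1 Rif1 shRNA arrays. The log2 fold change was -1.08 in J1 and -1.74 in F1 (limma adjusted p = 7.32e-05 and 3.78e-07), and the other 3 Rif1 probe sets were lower in both lines too. One of these 3 was already dim in F1 controls, with 107 and 57.1, against 1013 and 1095 in J1 controls. It had 26.8 and 3.17 in F1 Rif1 shRNA arrays. No other Rif1 probe set passed as lower in F1 than in J1 controls, and the cause of this disagreement was not tested. Pou5f1, Nanog and the other embryonic stem cell markers were bright in every group, with a summed signal of 46483 to 57664 over 10 markers. That sum hides differences between the lines in both directions. Mean Zfp42 signal was 7785 in J1 and 1315 in F1 controls, and mean Utf1 signal was 714.5 and 3617. All signals below are deposited intensities, which cannot be compared between probe sets. A log2 fold change is the difference of group means of log2(signal + 18) after quantile normalization. It is given with its standard error (SE) and its p-value adjusted over all probe sets tested. The spread of a probe set was pooled over both lines, so its SE is the same in J1 and F1 and is not that line's own. The median residual standard deviation was 0.115 in J1 and 0.0657 in F1. The shared SEs and p-values therefore tend to be too small for J1 and too large for F1. Because adding 18 pulls the fold changes of dim probe sets towards 0, the ratio of mean deposited signals is given beside the log2 value.

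Zfp352 and Sp110 had a promoter feature in common that choosing the genes by symbol did not use. RefSeq promoter sequences, running from 250 bases before to 50 bases after an annotated start on build GRCm38.p6, were on hand for 6 of the 7 genes. There were 2 for Sp110 and none for Arg2. The following 2 are shown because they share a repeated run, which is in capitals together with the run TATAAGG nearest the start. The third is shown for contrast, because its gene had the largest log2 fold change of the 7 in J1 and its promoter holds neither run.

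Zfp352, chr4:90218570-90218869, plus strand: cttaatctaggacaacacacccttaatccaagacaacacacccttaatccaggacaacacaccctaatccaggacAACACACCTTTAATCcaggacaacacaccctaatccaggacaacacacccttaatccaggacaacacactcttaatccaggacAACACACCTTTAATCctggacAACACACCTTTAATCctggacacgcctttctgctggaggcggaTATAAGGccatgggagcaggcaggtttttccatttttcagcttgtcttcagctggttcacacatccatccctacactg
Sp110, chr1:85603842-85604141, minus strand: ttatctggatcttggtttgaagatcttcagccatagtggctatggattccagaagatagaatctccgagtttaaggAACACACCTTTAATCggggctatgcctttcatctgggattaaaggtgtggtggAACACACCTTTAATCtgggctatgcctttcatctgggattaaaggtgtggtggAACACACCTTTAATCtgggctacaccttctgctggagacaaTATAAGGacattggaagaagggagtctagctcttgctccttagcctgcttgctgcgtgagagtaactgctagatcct
Usp17la, chr7:104856766-104857065, plus strand: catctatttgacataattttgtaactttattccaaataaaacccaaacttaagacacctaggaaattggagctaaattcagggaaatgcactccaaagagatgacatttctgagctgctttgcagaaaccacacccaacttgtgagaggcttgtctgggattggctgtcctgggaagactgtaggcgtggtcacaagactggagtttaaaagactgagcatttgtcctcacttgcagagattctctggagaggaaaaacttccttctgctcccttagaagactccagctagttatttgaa

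The run AACACACCTTTAATC, 15 bases long, occurred 3 times in the Zfp352 promoter and 3 times in this Sp110 promoter, each time on the strand of the gene. It was the longest run shared by promoters of any 2 of the genes; the next longest had 10 bases. Of all 32851 promoters of the same length, 23 held it on either strand (0.07%). A run picked as the longest shared one can be expected in few promoters, so this share is a description only. Its copies began 175, 92 and 71 bases before the Zfp352 start and 174, 121 and 68 bases before the Sp110 start. TATAAGG began 28 bases before the start in Zfp352 and 27 bases before it in Sp110, and was held by 2.17% of promoters on either strand. The homeobox core TAATCC, searched on both strands, occurred 9 times in the Zfp352 promoter, 2 times in this Sp110 promoter and 0 times in those of Usp17la, Ubtfl1, Spz1 and Duxf3, against 7.06% of all promoters with at least 1 match. A copy of the 15-base run followed by a C also counts as a TAATCC match. The second Sp110 promoter (chr1:85598761-85599060) held neither the run nor TATAAGG, and had 1 TAATCC. The 7 promoters had 0 to 5 CpG sites in 300 bases, and between 5.4% (for 0 sites) and 43.6% (for 5 sites) of all promoters had as few. A match of letters is a description and was not linked to binding of any factor.

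In J1 cells, 48 h after transfection, the deubiquitinase gene Usp17la, the nuclear body gene Sp110, the HMG-box gene Ubtfl1 and the arginase gene Arg2 rose. In F1 cells with a stable knockdown these genes rose too, together with the zinc finger gene Zfp352 and the spermatogenic transcription factor gene Spz1. Duxf3 did not pass in either line. With limma, 4 of the 7 genes were higher in J1, where 1.86% of all 14714 genes were, and 6 of 7 were higher in F1, where 10.6% were. With limma, 0 of the 7 were lower in either line, which is near the share of all genes that were (2.17% in J1, 8.16% in F1). At an unadjusted p under 0.05, 0 of the 7 were lower too. The median log2 fold change of the 7 was 0.79 in J1 and 2.02 in F1, against 0.01 and -0.02 over all genes tested. These genes were named with earlier results of the same arrays known, so the counts describe them and are no independent support. Ubtfl1 and Spz1 passed the filter on dim probe sets only through Rif1 shRNA arrays (3 and 2 arrays). With no filter the counts were 4 and 6 as well. When the 4 J1 arrays were fitted alone, 4 of the genes were bright enough to be tested and 2 passed, Usp17la and Sp110. In bulk RNA, more cells that express a gene and more RNA per cell cannot be told apart.

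**Figure D1:**
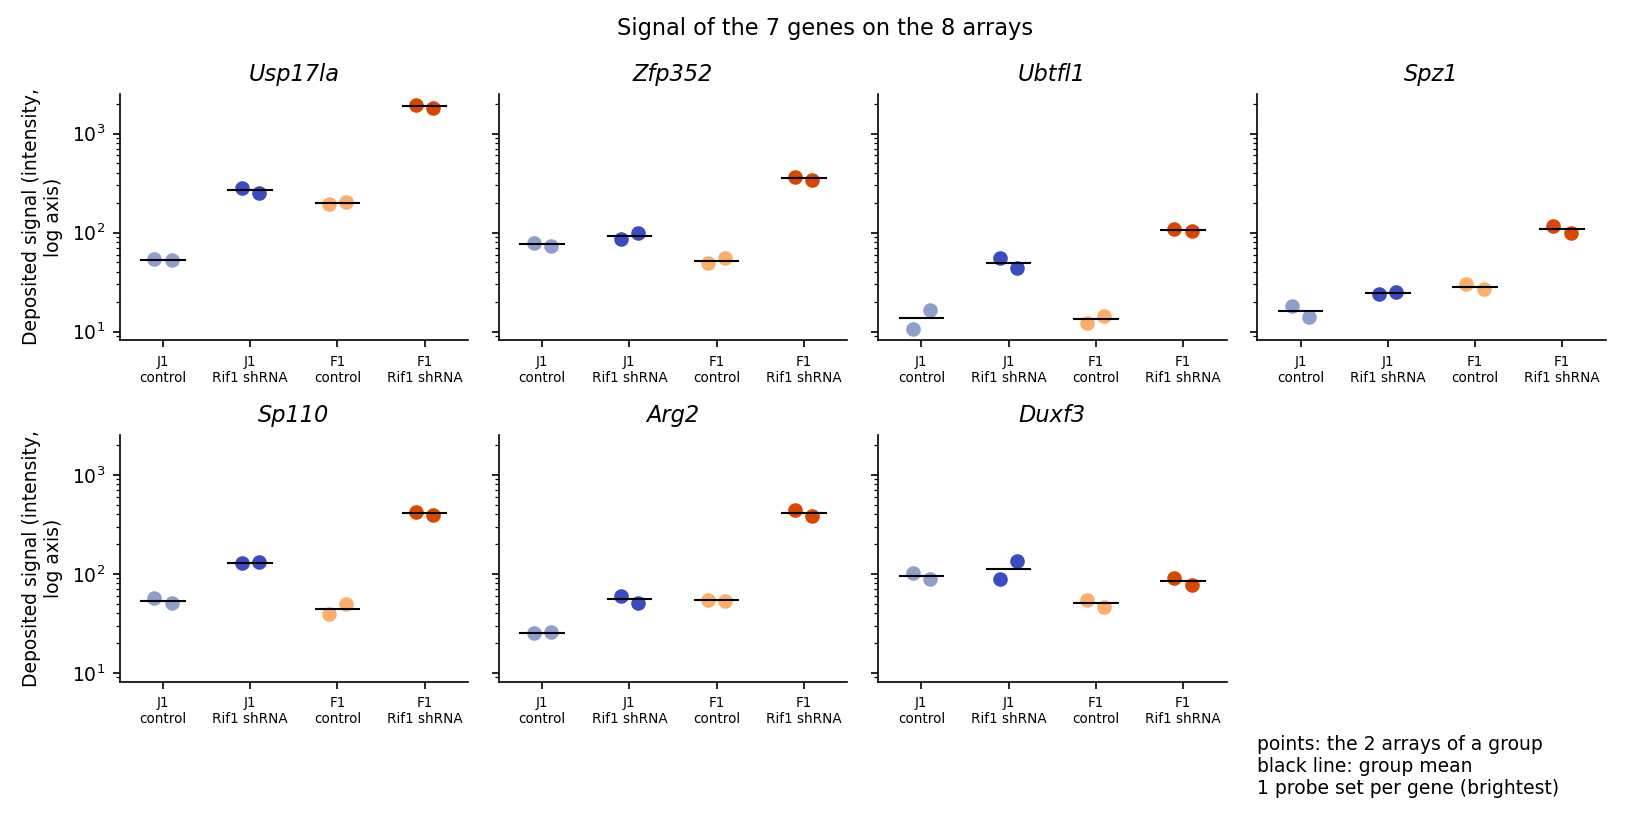
Deposited signal (log axis) of each gene at its brightest probe set on every array; points are the 2 arrays of a group and black lines the group means. In F1 the Rif1 shRNA arrays lie above the control arrays for all 7 genes, and in J1 the arrays overlap for Duxf3 only.

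Usp17la encodes a ubiquitin-specific protease that removes ubiquitin from proteins. Its signal was 53.6 and 52.5 in J1 control, 278 and 254 in J1 Rif1 shRNA, 195 and 202 in F1 control, and 1954 and 1814 in F1 Rif1 shRNA arrays. The arrays of the 4 groups did not overlap, in the order J1 control, F1 control, J1 Rif1 shRNA, F1 Rif1 shRNA. The rise in J1 was a log2 fold change of 2.36 (SE 0.09, limma adjusted p = 1.91e-07), a ratio of 5.02 between mean signals. In F1 it was 2.92 (SE 0.09, limma adjusted p = 2.30e-08), a ratio of 9.50. Usp17la has 1 probe set. The 2 probe sets annotated to its relatives Usp17lc and Usp17ld together were too dim to be tested, with signals of 12.9 to 22.2 in J1 and 19.1 to 52.4 in F1. Cross-hybridisation between the near-identical family members was not tested.

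Sp110 encodes a nuclear body protein of the SP100 family that interferon induces in immune cells. At its brightest probe set the signal was 56.9 and 50.2 in J1 control, 127 and 131 in J1 Rif1 shRNA, 38.9 and 49.7 in F1 control, and 421 and 396 in F1 Rif1 shRNA arrays. Control arrays of the 2 lines lay close together, and knockdown arrays lay apart from them and from each other. The log2 fold change was 1.22 in J1 (SE 0.11, limma adjusted p = 0.00041) and 2.36 in F1 (SE 0.11, limma adjusted p = 4.72e-07), with ratios of 2.41 and 9.22. The other 2 Sp110 probe sets disagreed with it. One had signals of 40.5 to 58.8 and the other of 39.0 to 71.2 over all 8 arrays. Their log2 fold changes were -0.05 and -0.01 in J1 (limma adjusted p = 0.837 and 0.976) and 0.29 and 0.46 in F1 (limma adjusted p = 0.0835 and 0.026). So the rise in J1 rests on 1 of 3 probe sets. In F1 a second one, of a type that can cross-hybridise, passed with a smaller change. Which transcripts or promoters the 3 probe sets report was not tested.

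Ubtfl1 encodes an HMG-box protein of preimplantation embryos that is related to the ribosomal RNA gene factor UBTF. Its signal was 10.6 and 16.7 in J1 control and 55.1 and 43.4 in J1 Rif1 shRNA arrays. In F1 it was 12.3 and 14.4 in control and 108 and 103 in Rif1 shRNA arrays. In controls of both lines the probe set was among the dimmest on the array, at a mean rank of 4.66% in J1 and 7.51% in F1, so the size of its ratio (3.61 in J1, 7.89 in F1) is poorly known. On the log2 scale it rose by 1.13 in J1 (SE 0.14, limma adjusted p = 0.00262) and by 1.78 in F1 (SE 0.14, limma adjusted p = 1.13e-05). The J1 value was 2.03 when nothing was added to the signal and 0.51 when 4 times as much was added, and it passed both times.

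Arg2 encodes the mitochondrial arginase, which splits arginine into ornithine and urea. Its signal was 25.1 and 25.6 in J1 control, 59.3 and 50.9 in J1 Rif1 shRNA, 54.8 and 52.9 in F1 control, and 439 and 384 in F1 Rif1 shRNA arrays. The J1 knockdown arrays thus overlapped the F1 control arrays. The log2 fold change was 0.79 in J1 (SE 0.13, limma adjusted p = 0.00829) and 2.17 in F1 (SE 0.13, limma adjusted p = 1.31e-06), with ratios of 2.17 and 7.64. The second Arg2 probe set, which passed the filter on dim probe sets only through 3 knockdown arrays, had 0.97 and 2.04 (limma adjusted p = 0.00735 and 6.69e-06). The J1 rise of the brightest probe set did not pass without J1 control replicate 1 (limma adjusted p = 0.0587) or without J1 control replicate 2 (0.0546).

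Zfp352 is a zinc finger gene transcribed in 2-cell embryos. Its signal was 78.4 and 73.5 in J1 control, 85.3 and 99.8 in J1 Rif1 shRNA, 49.0 and 55.0 in F1 control, and 366 and 338 in F1 Rif1 shRNA arrays. The J1 groups did not overlap, but the log2 fold change of 0.23 (SE 0.11, 95% interval -0.01 to 0.46) did not pass (limma adjusted p = 0.311). In F1 it was 2.02 (SE 0.11, limma adjusted p = 8.11e-07), a ratio of 6.77. The second Zfp352 probe set, of a type that can cross-hybridise, had 0.26 in J1 (limma adjusted p = 0.313) and 1.97 in F1 (limma adjusted p = 2.12e-06). Of the 2 genes with the repeated promoter run, Sp110 passed in J1 and Zfp352 did not, which is no test of a difference between them. Both rose in F1.

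Spz1 encodes a basic helix-loop-helix zipper factor known from the testis. Its signal was 17.99 and 14.07 in J1 control, 23.96 and 25.03 in J1 Rif1 shRNA, 30.3 and 26.7 in F1 control, and 117 and 100 in F1 Rif1 shRNA arrays. The log2 fold change in J1 was 0.33 (SE 0.11, 95% interval 0.09 to 0.56, limma adjusted p = 0.135), and the J1 arrays were dim throughout, at a mean rank of 6.19% in controls and 14.5% in knockdown arrays. In F1 it was 1.26 (SE 0.11, limma adjusted p = 1.85e-05), a ratio of 3.80.

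Duxf3 belongs to the Dux family of double homeobox genes, and whether its probe set reports the Dux gene that is active in 2-cell embryos is not known. Its own probe set had 103 and 88.9 in J1 control, 88.6 and 134 in J1 Rif1 shRNA, 54.2 and 46.2 in F1 control, and 90.8 and 76.6 in F1 Rif1 shRNA arrays. The 2 J1 knockdown arrays lay on either side of the control arrays, and the log2 fold change was 0.16 (SE 0.16, 95% interval -0.19 to 0.51, limma adjusted p = 0.665). In F1 the groups did not overlap, and the value of 0.49 (SE 0.16, 95% interval 0.14 to 0.83) did not pass (limma adjusted p = 0.0653). It passed with the values as deposited (0.58, limma adjusted p = 0.0288), with only the 4 F1 arrays (0.56, limma adjusted p = 0.0101), and under 6 further alternatives. The probe set shared with other symbols had -0.02 in J1 and 0.37 in F1 (limma adjusted p = 0.957 and 0.0532) and names no gene by itself.

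**Figure D2:**
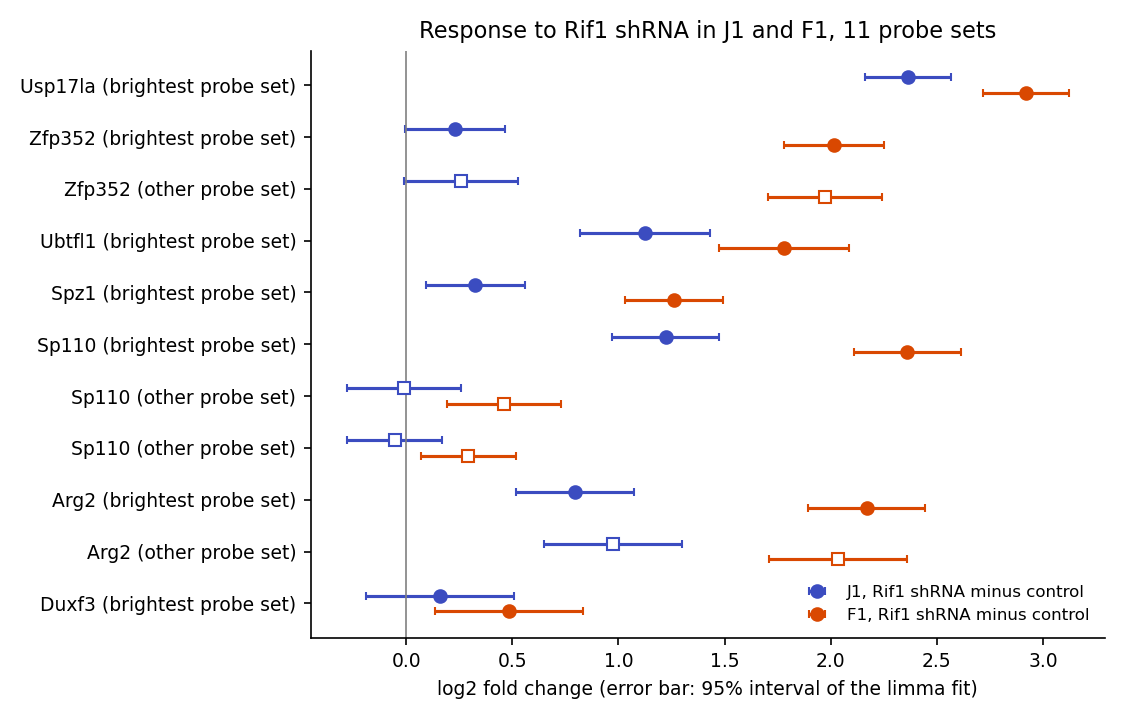
Log2 fold change, Rif1 shRNA minus control, of the 11 probe sets in J1 (blue) and F1 (orange), with 95% intervals from the limma fit; filled circles are the brightest probe set of a gene and open squares the others. Every F1 value lies to the right of its J1 value, and 2 of the 3 Sp110 probe sets lie near 0 in J1.

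The response was compared between the lines by the F1 effect minus the J1 effect. It was larger in F1 for Zfp352, Arg2, Sp110, Spz1 and Usp17la, that is for 5 of the 7 genes, where 6.24% of all genes had a difference in this direction. Zfp352 had the largest difference, 1.79 (SE 0.15, 95% interval 1.46 to 2.12, limma adjusted p = 6.87e-05). Arg2 followed with 1.37 (SE 0.18, limma adjusted p = 0.000884), Sp110 with 1.14 (SE 0.16, limma adjusted p = 0.00162) and Spz1 with 0.94 (SE 0.15, limma adjusted p = 0.0032). The second probe sets of Zfp352 and Arg2 gave 1.71 and 1.06 (limma adjusted p = 0.000199 and 0.0101), while the other Sp110 probe sets gave 0.35 and 0.47 and did not pass (limma adjusted p = 0.184 and 0.128). Usp17la had the smallest difference that passed with this normalization, 0.56 (SE 0.13, limma adjusted p = 0.0233). That call was lost with no offset (0.34, limma adjusted p = 0.189), and also without J1 control replicate 2 (limma adjusted p = 0.0806), J1 Rif1 shRNA replicate 2 (0.0531), F1 control replicate 1 (0.0732) or 2 (0.0655), or F1 Rif1 shRNA replicate 1 (0.137) or 2 (0.0703). It was also lost with the replicate block (0.077). The value was 1.14 with the values as deposited (limma adjusted p = 0.000168).

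For Ubtfl1 the difference of 0.65 (95% interval 0.22 to 1.09) did not pass (limma adjusted p = 0.0697), and it did with values as deposited (0.89, limma adjusted p = 0.0128). For Duxf3 it was 0.33 (95% interval -0.17 to 0.82, limma adjusted p = 0.445). Without either F1 Rif1 shRNA array, Spz1 was too dim to be tested and 3 genes passed: Zfp352, Arg2 and Sp110. On the scale of deposited signal, mean Usp17la gained 213 units in J1 and 1685 in F1, Arg2 29.7 and 357, Sp110 75.6 and 364, and Zfp352 16.6 and 300.1. The fall of Rif1 at its brightest probe set was larger in F1 (difference -0.66, limma adjusted p = 0.00489), and its part in these differences was not tested.

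The level in control cells also differed between the lines, and not in one direction. Usp17la, Arg2 and Spz1 were higher in F1 controls and Zfp352 and Duxf3 were lower, while Ubtfl1, and Sp110 at its brightest probe set, did not pass. So 3 of the 7 genes were higher, beside 27.5% of all genes, and 2 of 7 were lower, beside 38.5%, which are shares near the background. Usp17la had a log2 difference of 1.41 (SE 0.09, limma adjusted p = 2.53e-07), a 3.74-fold higher mean signal in F1 controls. Arg2 had 0.83 (SE 0.13, limma adjusted p = 0.000147) and Spz1 0.61 (SE 0.11, limma adjusted p = 0.000382). Duxf3 had -0.85 (SE 0.16, limma adjusted p = 0.00062), a 1.91-fold higher mean signal in J1 controls, and Zfp352 had -0.48 (SE 0.11, limma adjusted p = 0.00206). The probe set that Duxf3 shares with other symbols had 0.15 (limma adjusted p = 0.251), so the probe sets with that symbol differed in direction. Ubtfl1 had 0.16 (limma adjusted p = 0.318) and Sp110 -0.17 (limma adjusted p = 0.221). The Sp110 probe sets differed here. The one of a type that can cross-hybridise was lower in F1 controls (-0.50, limma adjusted p = 0.00376). So was the mean of all 3 (-0.28, limma adjusted p = 0.0131), which made 3 genes lower.

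These values depended on how the arrays of the 2 lines were put on one scale. The 2% trimmed mean of the signal was 193 to 197 on J1 and 301 to 309 on F1 arrays. The median difference over all probe sets was -0.02 after quantile normalization, 0.30 with values as deposited, -0.24 with each array scaled to the same trimmed mean and 0.31 with normalization within each line. Of the called probe sets 10573 were higher and 10755 lower in F1 controls in the first case, 16541 and 6349 in the second, 8339 and 15560 in the third, and 16750 and 6711 in the fourth. Usp17la and Arg2 stayed higher and Zfp352 and Duxf3 lower past the threshold under all 4 scalings. Spz1 did not pass with trimmed-mean scaling (0.11, limma adjusted p = 0.419), Sp110 then passed as lower in F1 (-0.67, limma adjusted p = 0.000203), and Ubtfl1 changed sign.

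**Figure D3:**
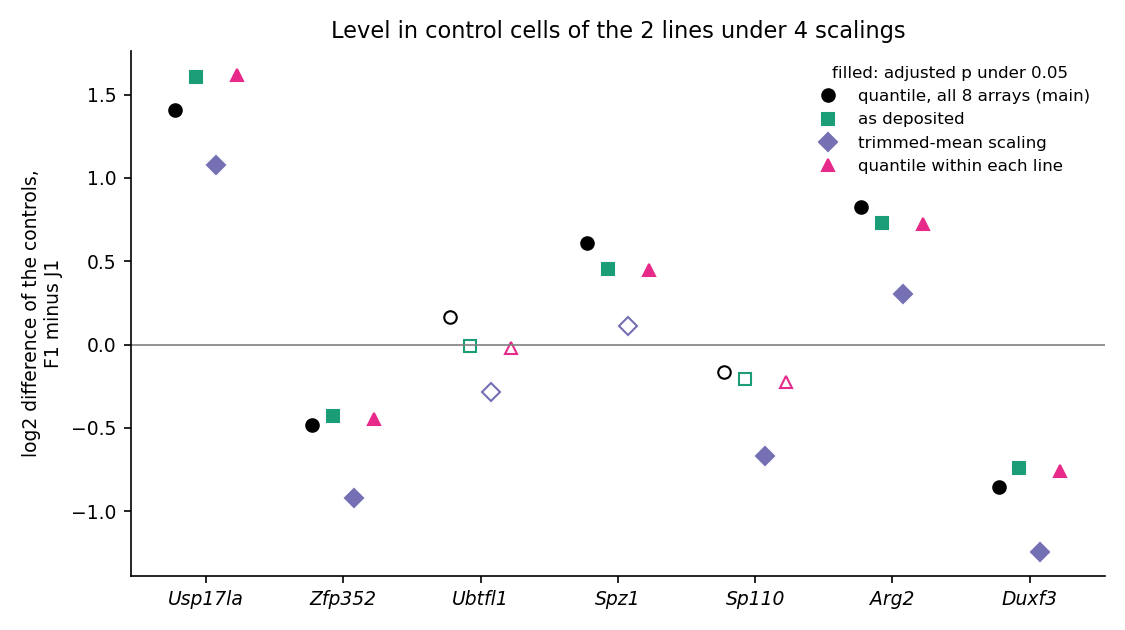
Log2 difference between F1 and J1 control arrays for each gene under 4 scalings of the arrays; filled symbols have a limma adjusted p under 0.05. Usp17la and Arg2 lie above 0 and Zfp352 and Duxf3 below 0 under all 4, and Ubtfl1 lies on both sides.

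A gene's level in controls and its response did not go together in a single way. Zfp352 was lower in F1 than in J1 controls and had the largest difference in response. Usp17la was higher in F1 controls and had the smallest difference in response among those that passed, which of the 4 scalings held only with quantile normalization of all arrays together: with values as deposited it had 1.14, beside 1.12 for Spz1 and 0.89 for Ubtfl1. Over the 8 arrays the 6 genes other than Duxf3 correlated with each other at Pearson r from 0.77 (Spz1 and Sp110) to 0.99 (Spz1 and Arg2). Duxf3 correlated with them at r from -0.34 to 0.24. The 8 arrays form 4 groups of 2, so these values describe little more than 4 points.

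By the same measure, over 8 arrays and 3974 genes that varied by at least 1 on the log2 scale, the genes most like each of the 7 in pattern were found. For Usp17la they were Gstk1, Ccser1 and Sohlh2 (r of 0.99 each). For Ubtfl1 they were Ctsc (0.99), Gstk1 (0.99) and Tcstv3 (0.98), the last a gene of a 2-cell cluster. For Sp110 they were Ctsc (0.99), Tcstv3 (0.99) and Pcdh8 (0.98). For Zfp352 they were Eomes, Marveld1 and Ct55 (0.99 each), and for Spz1 BC147527 (0.998), Antxr1 and Hspa1b (0.99 each). For Arg2 they were Selenop, Esx1 and Zfp560 (0.99 each), and for Duxf3 Rassf1 (0.99), Zcchc12 and Ccdc28a (0.98 each). Ctsc, near both Ubtfl1 and Sp110, rose by 0.99 in J1 and 1.43 in F1 (limma adjusted p = 0.000337 and 1.97e-06).

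Other genes of the 2-cell program were taken from lists made for this description. Over all genes tested, 1.86% rose and 2.17% fell in J1, and 10.6% rose and 8.16% fell in F1. Of 26 genes in 2-cell clusters, 11 had a probe set of their own and 8 were tested; 5 rose and 0 fell in J1, and 6 rose and 0 fell in F1. Their median log2 fold change was 1.19 in J1 and 2.31 in F1. AF067061 had 2.74 and 2.96 (limma adjusted p = 2.54e-08 and 1.12e-08) and Gm20767 had 3.52 and 2.86 (limma adjusted p = 2.69e-08 and 7.26e-08). The difference between the lines went both ways here: 4 of the 8 had a larger response in F1 and 1, Gm20767, a smaller one (-0.66, limma adjusted p = 0.0219). In control cells 6 of the 8 were higher and 1 lower in F1, with a median of 1.76. Among 11 genes drawn up as candidate activators of the 2-cell-like state, 0 rose with limma (1 at an unadjusted p under 0.05) and 1 fell in J1, which was Zfp281 (-0.24, limma adjusted p = 0.0443). Whether each listed gene, Zfp281 among them, acts as an activator was not tested, so this call says nothing of activators as such. Ddit4l had 0.38 (limma adjusted p = 0.0608). In F1 3 rose and 2 fell: Ddit4l (1.51, limma adjusted p = 2.82e-06), Dppa2 (0.38, limma adjusted p = 0.00218) and the negative elongation factor gene Nelfa (0.32) rose, and Dppa4 (-0.22) and Zscan5b (-0.54) fell. Dppa2 and Dppa4 encode partner proteins that bind the Dux locus.

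Among 32 genes listed as repressors of that state, 0 rose with limma (2 at an unadjusted p under 0.05) and 1 fell in J1, which was Tex10 (-0.32, limma adjusted p = 0.0424), and Mga had -0.29 (limma adjusted p = 0.0991). In F1 4 rose and 9 fell, beside 10.6% and 8.16% of all genes, with a median of -0.16. By p-value the first to fall were Uhrf1, which guides maintenance DNA methylation (-0.54, limma adjusted p = 0.00015), and Morc3 (-0.46, limma adjusted p = 0.000574). Mga (-0.55) and the chromatin assembly gene Chaf1b (-0.56) fell by as much or more. The risen ones were Hdac2, E2f6, Rnf2 and Myc (0.37, 0.47, 0.18 and 0.52).

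**Figure D4:**
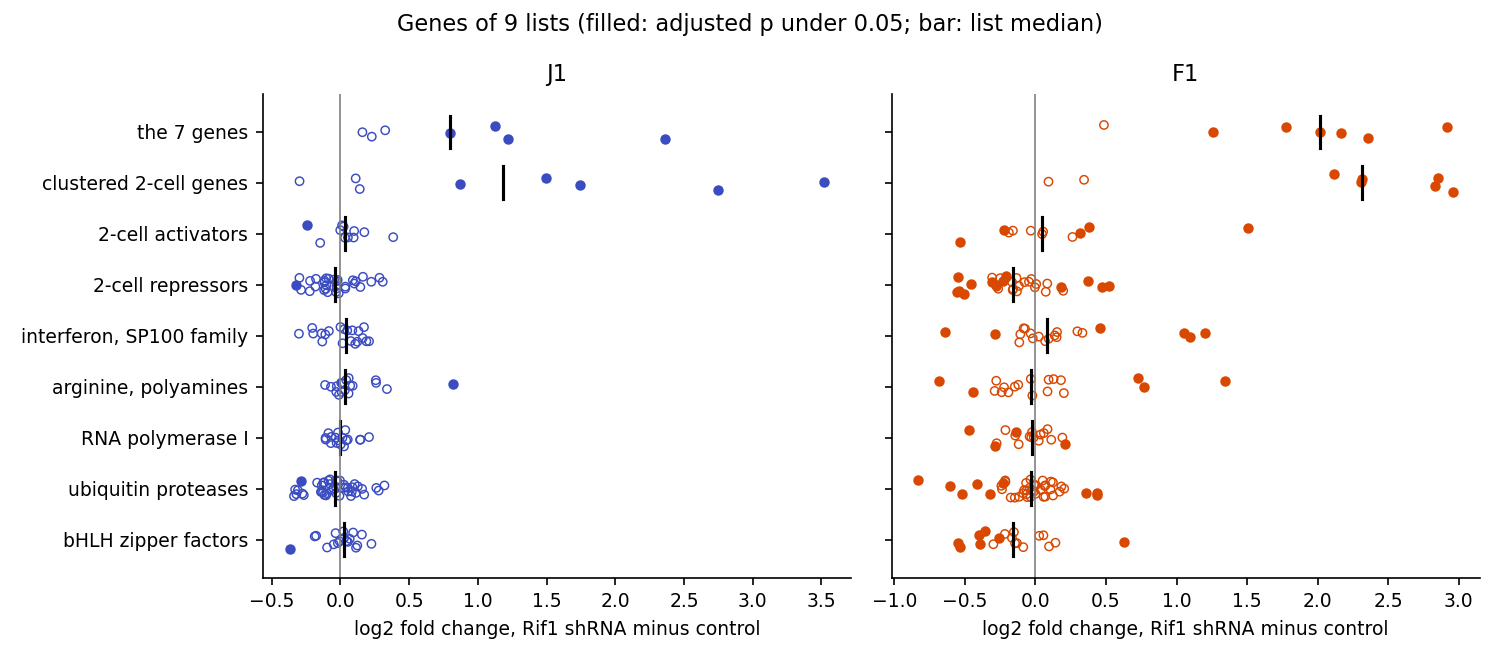
Log2 fold change of every tested gene on 9 lists in J1 (left) and F1 (right), on axes of different range; filled points have a limma adjusted p under 0.05 and bars mark list medians. The 7 genes and the clustered 2-cell genes have medians of 0.79 and 1.19 in J1 and of 2.02 and 2.31 in F1, and the other 7 lists have medians between -0.16 and 0.08.

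The functional relatives of the 7 genes were mostly not called, which was true of most genes on the arrays. The counts below stand beside 1.86% of all genes that rose and 2.17% that fell in J1. In F1 these shares were 10.6% and 8.16%. Of 20 interferon and SP100 family genes tested, peers of Sp110, 0 rose and 0 fell in J1 with limma (0 and 1 at an unadjusted p under 0.05), where Pml had -0.20 and the interferon-induced GTPase gene Gbp3 -0.30 (limma adjusted p = 0.155 and 0.304). In F1 4 rose and 2 fell. B2m, the light chain of class I antigen presentation, had 1.10 and Gbp2, another such GTPase gene, 1.20 (limma adjusted p = 3.92e-05 and 0.00037). Sp100 itself was too dim to be tested. Of 19 genes of arginine and polyamine metabolism, peers of Arg2, 1 rose in J1 and 3 rose and 2 fell in F1. Gatm, which makes the creatine precursor from arginine, had 0.82 in J1 and 1.34 in F1 (limma adjusted p = 0.0145 and 0.000122). Oat, which converts the ornithine that arginase makes, had 0.26 (limma adjusted p = 0.0788) and 0.73 (limma adjusted p = 5.05e-05). Arg1 was too dim to be tested.

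Of 18 RNA polymerase I genes, peers of UBTF, 0 rose and 0 fell in J1 with limma (1 and 0 at an unadjusted p under 0.05), and 1 rose and 3 fell in F1. Polr1b had 0.21 and Polr1d -0.09 in J1 (limma adjusted p = 0.275 and 0.374), and Taf1d had -0.47 and Rrn3 -0.29 in F1 (limma adjusted p = 0.0057 and 0.0108). Of 44 ubiquitin-specific protease genes, peers of Usp17la, 1 fell in J1, Usp48 (-0.29, limma adjusted p = 0.0404), and Usp47 had 0.32 (limma adjusted p = 0.0613). In F1 3 of them rose and 6 fell. By p-value the first were Usp28 (-0.83, limma adjusted p = 5.20e-05) and Usp11 (-0.52, limma adjusted p = 0.00114). Of 18 helix-loop-helix zipper genes, peers of Spz1, 1 fell in J1, Mlx (-0.37, limma adjusted p = 0.0472), and Mycn had -0.18 (limma adjusted p = 0.162). In F1 1 rose and 6 fell, with Tfap4 at -0.54 and Mycn at -0.36 (limma adjusted p = 0.00227 and 0.00261).

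Markers of other cells moved with the F1 comparison. Of 18 feeder fibroblast markers tested, 15 rose and 0 fell in F1, among them Tagln (1.55) and Vim (0.65), and their summed signal was 14374 to 14668 in control and 24475 to 24485 in Rif1 shRNA arrays. In J1 2 fell, Acta2 (-1.88) and Tagln (-1.01), and the sum was 10523 to 10549 in control and 8888 to 9002 in Rif1 shRNA arrays. Because the lowest deposited value was 1 and dim probe sets were left out, these sums cannot show whether a group lacked feeder RNA. Of 10 trophoblast and epithelial markers, 7 rose and 1 fell in F1. Krt18 had 3.14 and Krt8 3.09, and the 1 that fell was Tfap2c (-0.85, limma adjusted p = 5.20e-05). Cdx2 (0.14) and Epcam (-0.15) did not pass. The summed signal of the 10 was 6683 to 6751 in control and 14286 to 15348 in Rif1 shRNA arrays. Most of that gain came from 2 keratins, with mean signals of 515 and 4427 for Krt8 and 480 and 4330 for Krt18. In J1 2 of the 10 markers fell, Krt18 (-0.61) and Tfap2c (-0.58). Of the 10 stem cell markers, 0 passed in J1 with limma, where 1 was higher and 2 lower at an unadjusted p under 0.05 (Klf4 -0.21, Tdgf1 0.15), and 1 rose and 5 fell in F1 (Esrrb -0.54, Sox2 -0.26). The actin 3'-to-5' ratio, a sign of RNA quality, was 2.61 to 2.71 in J1 control, 2.17 to 2.18 in J1 Rif1 shRNA and 1.33 to 1.41 on F1 arrays. The part of these shifts in the changes of the 7 genes was not tested.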

How the data were processed

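Per the labels, total RNA was extracted with Trizol and hybridised with a biotin label to Affymetrix mouse arrays. The deposited values are intensity signals on a linear scale, 1 per probe set and array (45101 probe sets, 8 arrays, lowest value 1), made with MAS5 per the submitters' processing notes. Its version and target scaling are not given in the sources used here. Precision is limited by the number of arrays.

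The 64 control probe sets were left out. The 10th percentile of the table, 18, was added to each signal before log2, and the 8 arrays were quantile normalized together. Probe sets above the 40th percentile on at least 2 arrays were tested (31605). Group means were fitted with limma 3.58.1 in R 4.3.3 (eBayes with intensity trend, 4 residual degrees of freedom). The residual spread of each probe set was pooled over both lines. The Benjamini-Hochberg threshold was 0.05, two-sided. Each gene was taken at its brightest tested probe set. The fit was tested on simulated data.

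Names came from the platform annotation: 34945 probe sets had 1 symbol, 932 several, which named no gene here, and 9160 none. Genes named are the 7, Rif1, the 2 of each list with the smallest p in each knockdown and the 3 most correlated with each of the 7; Nanog, Pou5f1, Mga in F1, Chaf1b, Ctsc, the other genes that spell out a small count, the promoter runs and the chromosome neighbours were chosen after values were seen. Usp7, Usp18, Ncl and Zfp42 are on 2 lists each. The 7 genes and the lists were chosen with earlier results of these data known. The deviations of same-numbered control and knockdown arrays from their group means correlated at r = -0.34 in J1 and 0.19 in F1. Promoters came from RefSeq (GRCm38.p6), with pandas 2.3.3 in Python 3.11.15; figures were drawn with matplotlib 3.10.9. Alternatives changed the offset, filter, scaling, spread, block, probe set and arrays.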

Additional observations from a re-analysis of the deposited data

Results flagged for a closer look

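The response of 5 genes differed between the 2 lines, by a test of the difference itself (F1 effect minus J1 effect, log2 scale, limma). The difference was 1.79 for Zfp352, 1.37 for Arg2, 1.14 for Sp110, 0.94 for Spz1 and 0.56 for Usp17la, all larger in F1. Both F1 knockdown arrays lay above both F1 control arrays for all 7 genes, so that separation says nothing of a difference between the lines. Spz1 passed the filter on dim probe sets only through the 2 F1 Rif1 shRNA arrays. The Usp17la call was lost with no offset (0.34, limma adjusted p = 0.189). The cause of the differences was not tested, and line, strain, delivery and time in culture cannot be told apart.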

How the results depend on the processing

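The main counts were 4 genes past the threshold in J1, 6 in F1, 5 for the difference and 5 between controls. The J1 count was 2 when the 4 J1 arrays were fitted alone, of 4 genes bright enough to test. Leaving out each array in turn gave 3 to 4 in J1, 5 to 7 in F1, 3 to 6 for the difference and 4 to 5 between controls. With the replicate block the counts were 4, 6, 4 and 5; with a crossed replicate block in J1, added after the data were seen, they were 4 in J1 and 6 for the difference. Over all probe sets, 1005 were called in J1, against 470 with the replicate block, 1802 with it crossed, 350 with no intensity trend and 294 with the J1 arrays alone. Leaving out 1 array gave 227 (J1 control replicate 2) to 1769 (J1 Rif1 shRNA replicate 1). In F1 4753 were called, 8223 with the F1 arrays alone and as few as 1842 without F1 Rif1 shRNA replicate 1; for the difference 2634 were called, 1705 with the replicate block and 1010 (without F1 Rif1 shRNA replicate 1) to 3995 (without J1 Rif1 shRNA replicate 1) with 1 array left out. Signs turned for 3 genes, none past the threshold afterwards: Ubtfl1 between controls with values as deposited (-0.0076), trimmed-mean scaling (-0.28) and normalization within each line (-0.022), Sp110 in J1 at its dimmest probe set (-0.054), and Duxf3 in J1 without Rif1 shRNA replicate 2, where leaving out each array gave -0.10 to 0.43. The cause was not tested, except that another probe set was used for Sp110. Zfp352 and Arg2 kept a larger response in F1 past the threshold under every alternative run, with 1.30 to 2.18 and 1.06 to 1.82. Spz1 had 0.61 to 1.12 where it was tested, which for the filter used needed both F1 Rif1 shRNA arrays, those in which it is high, so this range says nothing of its stability without either. Ubtfl1, Spz1 and Arg2 in J1 controls ranked at 4.66%, 6.19% and 15.9% of the signals on an array, which limits their ratios.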

Other observations

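The genes that lie beside the 7 along the chromosome were looked at after the rest, by taking the nearest tested gene on each side in RefSeq order (14 genes), which need not be close. In J1, 1 of them rose and 0 fell, beside 1.86% and 2.17% of all genes. In F1 4 rose and 0 fell, beside 10.6% and 8.16% of all genes. Naalad2, 6.9 kb from Ubtfl1, rose by 1.70 in F1 (limma adjusted p = 2.71e-06) and had 0.01 in J1 (limma adjusted p = 0.965). Cdkn2b, a cell cycle inhibitor gene 907.8 kb from Zfp352, rose by 1.12 in F1 (limma adjusted p = 0.00037) and had -0.12 in J1 (limma adjusted p = 0.737). Smpdl3a, 417.7 kb from Duxf3, rose in both J1 and F1, by 0.53 (limma adjusted p = 0.0346) and 0.86 (limma adjusted p = 0.000474). Pigh, 41.0 kb from Arg2, rose by 0.40 in F1 (limma adjusted p = 0.015). The neighbours of Usp17la, Spz1 and Sp110 did not pass in either line.

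Of the 22 genes whose promoter holds the 15-base run of Zfp352 and Sp110, 4 were tested on the arrays. Besides these 2, Gm33248 rose in F1 (0.57, limma adjusted p = 0.00508) with -0.19 in J1 (limma adjusted p = 0.411), and Pemt had 0.13 in F1 and 0.06 in J1 (limma adjusted p = 0.544 and 0.836). With so few genes measured, the run's relation to the response was not tested.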
